A study of Mus musculus with 36 samples.

Results

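The reactive astrocyte genes described here are 10 mouse genes, Gfap, Vim, Cd44, S1pr3, Cd109, Emp1, Timp1, Ptx3, Aspg and Hspb1. They were taken by symbol from a deposited table of read counts for 54532 genes. All 10 passed the filter on low counts and were among the 18438 genes tested. Astrocytes answer injury and inflammation of the brain by enlarging, building up their intermediate filaments and switching on a shared set of surface, secreted and stress genes. The interleukin 6 family, acting through STAT3, is the best known inducer of this state, and microglia and infiltrating leukocytes supply many of its signals. Work in mice separated genes induced in most kinds of reactive astrocyte (pan-reactive, here Gfap, Vim, Cd44, S1pr3, Timp1, Aspg and Hspb1) from those induced mainly after stroke (A2-type, here Cd109, Emp1 and Ptx3). Several are not restricted to astrocytes: Cd44 and Vim are also made by leukocytes, Vim and Emp1 by vessel and meningeal cells, and Timp1 and Ptx3 by myeloid and stromal cells.

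RNA was sequenced from whole brains of C57BL/6 wild-type mice on day 19, when experimental autoimmune encephalomyelitis (EAE), a model of inflammatory demyelination, was at its peak. Disease was induced in all EAE mice by immunization with MOG peptide, from a myelin protein, emulsified in complete Freund's adjuvant, together with pertussis toxin. The farnesol EAE mice (10 libraries) were also gavaged daily with trans,trans-farnesol, an isoprenoid alcohol, dissolved in corn oil (100 mg/kg). The vehicle EAE mice (9 libraries) were gavaged with corn oil, and the untreated EAE mice (9 libraries) were not treated. The naive mice (8 libraries) were healthy. Age and sex were not given in the labels used here. Effects of adjuvant or toxin and of the autoimmune disease cannot be told apart, since no group had the first 2 alone. The labels number replicates without stating separate mice, so p-values measure the spread between these libraries. In whole-brain RNA, a change in the number of cells of a type and a change in RNA per cell cannot be told apart.

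Libraries held 15.37 M to 23.61 M counts in farnesol EAE, 19.19 M to 22.07 M in vehicle EAE, 14.71 M to 24.21 M in untreated EAE and 14.71 M to 23.01 M in naive brain. Levels are CPM (counts scaled to a library of 1000000), changes are log2 fold changes ± standard error (SE), and a gene was called at an adjusted p below 0.05. The ribosomal RNA gene CT010467.1 split the libraries at 4000 CPM into 2 sets, which no label names. Set 1 held farnesol replicates 1 to 3 and every vehicle and untreated library, and set 2 held farnesol replicates 4 to 10 and every naive library. For vehicle and untreated EAE against naive brain, library set and disease therefore cannot be told apart. Some libraries stood apart in other ways. Sbp, a gene for a spermine-binding protein, exceeded 1 CPM in 3 vehicle and 5 untreated libraries, with a highest value of 12.4 CPM. Cerebellar genes were more than 1 log2 unit below the group median in farnesol 2, untreated 3 and naive 4. All 14 astrocyte identity genes and all 10 neuron markers passed the filter.

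Most reactive astrocyte genes were higher in EAE brains than in naive brains. In farnesol EAE, 6 of the 10 rose and none fell (Gfap, Vim, Cd44, Timp1, Ptx3 and Aspg), where 34.2% of all genes tested were called and 17.9% rose. The same 6 rose in vehicle EAE and none fell, where 31.5% of all genes were called and 16.3% rose. In untreated EAE, 7 rose and none fell, these 6 and Hspb1, where 24.9% of all genes were called and 13.6% rose. The median log2 change over the 10 genes was 0.59 in farnesol, 0.73 in vehicle and 0.73 in untreated EAE. Over all genes tested it was 0.01, 0.00 and -0.01. S1pr3, Cd109 and Emp1 were called in none of these comparisons, although each of the 10 genes had a positive fitted change in every one. The 3 comparisons share the 8 naive libraries, so their agreement is not independent.

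When the fit included a term for library set, which is estimated from the farnesol libraries alone, none of the 10 genes was called in vehicle or untreated EAE against naive brain, and 5 were in farnesol EAE, where Cd44 was lost. The 7 called in untreated EAE then had changes of 0.03 (Hspb1) to 1.43 (Ptx3). Over all genes the fit with this term called 4840 in farnesol, 684 in vehicle and 175 in untreated EAE. Among libraries of set 2 only, 7 farnesol against 8 naive, 4872 genes were called in all. Of the 9 members that could be tested there, 6 were called. These were Gfap (0.82 ± 0.16, adjusted p = 0.000614), Vim (0.49 ± 0.10), Cd44 (0.52 ± 0.15), Timp1 (1.43 ± 0.35), Aspg (0.81 ± 0.21) and Emp1 (0.50 ± 0.18, adjusted p = 0.0419). Ptx3 had too few counts there to be tested.

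**Figure D1:**
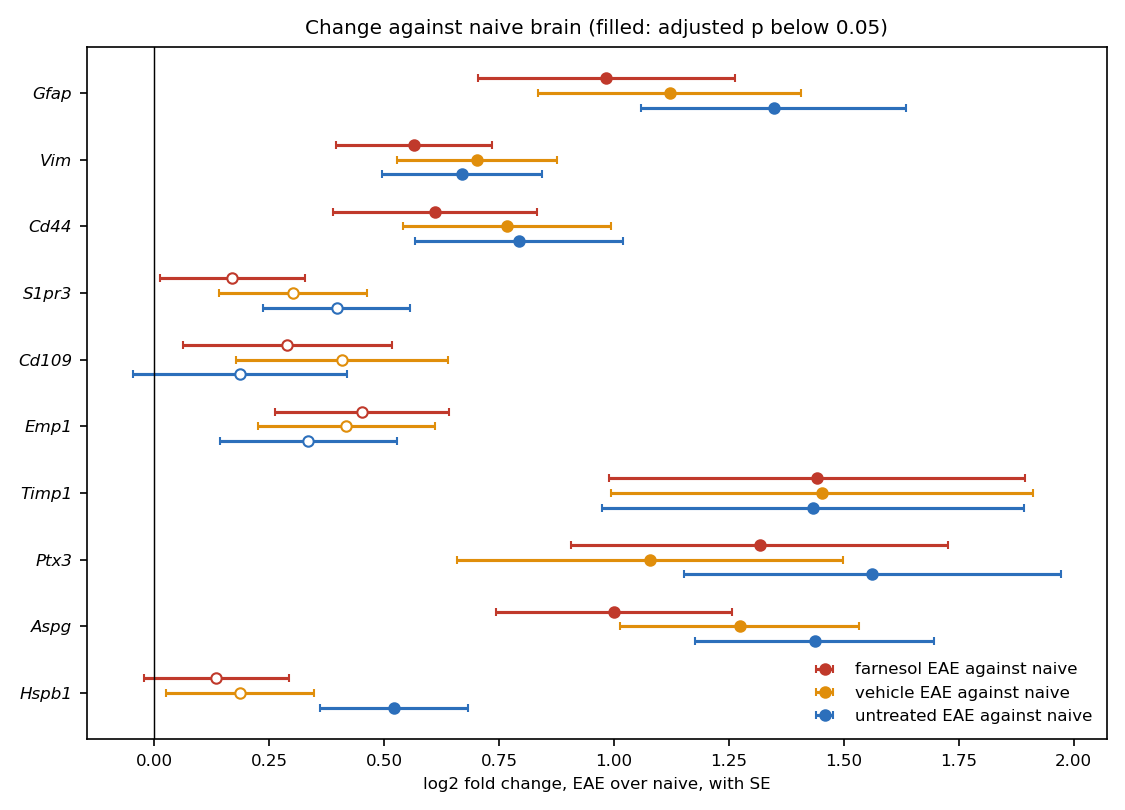
Log2 fold change of each gene (rows) in farnesol, vehicle and untreated EAE over naive brain (horizontal axis), with SE as bars and filled points for adjusted p below 0.05. Points of Gfap, Vim, Cd44, Timp1, Ptx3 and Aspg are filled in all 3 comparisons, Hspb1 in untreated EAE alone, and S1pr3, Cd109 and Emp1 in none.

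Gfap (ENSMUSG00000020932, chr11:102887336-102900912 on GRCm38, minus strand) encodes glial fibrillary acidic protein, the intermediate filament by which reactive astrocytes are usually recognized. It was the most abundant of the 10 genes in every group, also per kilobase of exon. The lowest, median and highest libraries held 270, 464 and 1015 CPM in farnesol EAE, and 234, 416 and 1337 CPM in vehicle EAE. They held 357, 521 and 969 CPM in untreated EAE, against 211, 242 and 307 CPM in naive brain. Every untreated library lay above every naive one, where 2.62% of all genes tested were higher without overlap, while 7 of 10 farnesol and 6 of 9 vehicle libraries did. No member separated farnesol from naive libraries in this way, as 3.23% of all genes did. Gfap rose by 0.98 ± 0.28 in farnesol EAE (adjusted p = 0.00641), by 1.12 ± 0.29 in vehicle EAE (adjusted p = 0.00275) and by 1.35 ± 0.29 in untreated EAE (adjusted p = 0.000646). Its spread between libraries was wide in disease, with a coefficient of variation of 47.6% in farnesol, 66.2% in vehicle and 36.5% in untreated EAE against 11.9% in naive brain.

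The Gfap promoter is shown because STAT3 is a known inducer of the gene and because Gfap sets the scale of the other members below. The window is RefSeq sequence on GRCm38.p6, chr11:102897151-102897450, minus strand, from 250 bases before the annotated start to 50 after it. That start lies inside the gene interval given above, not at its upstream end (102900912). Capitals mark the single match to the STAT motif TTCNNNGAA, from position -2 to position 7 around the start, which 8.30% of 32851 mouse promoter windows of this length also hold.
Gfap promoter: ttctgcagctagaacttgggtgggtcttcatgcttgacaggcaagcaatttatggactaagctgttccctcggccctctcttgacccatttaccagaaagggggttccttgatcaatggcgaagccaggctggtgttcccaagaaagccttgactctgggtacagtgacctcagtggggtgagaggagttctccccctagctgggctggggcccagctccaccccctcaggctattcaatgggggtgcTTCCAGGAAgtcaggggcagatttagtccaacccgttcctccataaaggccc
Searched on both strands, the same motif occurred in 2 of the 10 promoter windows found for 9 of the genes, those of Gfap and Emp1. A match describes letters only and does not show binding.

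Vim (chr2:13573927-13582826, plus strand) encodes vimentin, the filament partner of GFAP, which mature resting astrocytes hold at low levels. Its lowest, median and highest libraries were at 72.5, 100 and 158 CPM in farnesol EAE, 80.4, 96.8 and 194 CPM in vehicle EAE and 66.2, 97.2 and 161 CPM in untreated EAE, against 43.4, 72.4 and 79.7 CPM in naive brain. All vehicle libraries lay above every naive one (3.79% of all genes were higher without overlap), as did 9 of 10 farnesol and 8 of 9 untreated libraries. Farnesol 2 and untreated 3, both low in cerebellar genes, were the exceptions. Vim rose by 0.57 ± 0.17 in farnesol (adjusted p = 0.00958), 0.70 ± 0.17 in vehicle (adjusted p = 0.00204) and 0.67 ± 0.17 in untreated EAE (adjusted p = 0.00409). The fold was smaller than that of Gfap in each comparison, but more libraries cleared the naive range, 26 against 22 of 28. Its RefSeq promoter window held a TATAAA box at position -32, as 13.6% of windows did, and no STAT match.

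**Figure D2:**
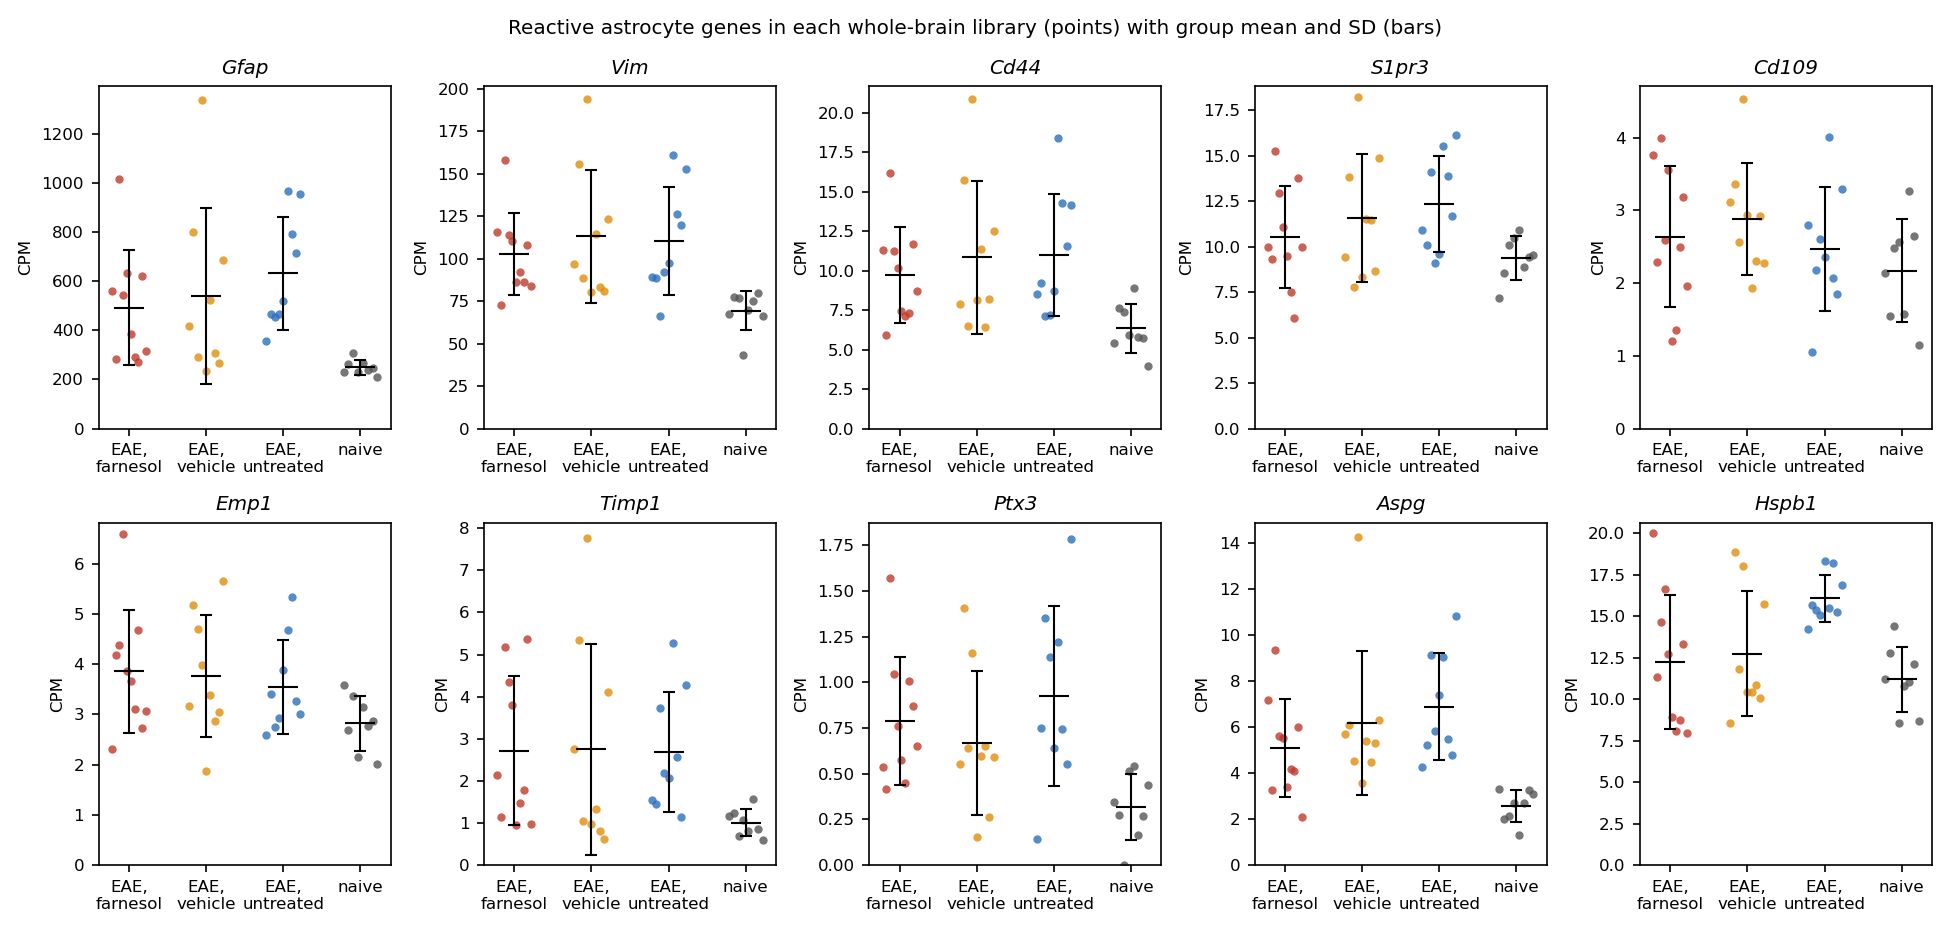
CPM of each gene (vertical axes, starting at 0) in every farnesol EAE, vehicle EAE, untreated EAE and naive library (points), with group means and SDs as bars. Vehicle and farnesol EAE each hold 1 library far above the others for Gfap (1337 and 1015 CPM), and naive libraries lie close together for Gfap.

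Among the surface genes, Cd44 alone was called. Cd44 (chr2:102811141-102901665) encodes the receptor for hyaluronan, a matrix sugar polymer, on astrocytes and leukocytes. Its lowest, median and highest libraries were at 5.94, 9.44 and 16.2 CPM in farnesol EAE, 6.42, 8.22 and 20.9 CPM in vehicle EAE and 7.10, 9.23 and 18.4 CPM in untreated EAE, against 3.98, 5.86 and 8.94 CPM in naive brain. Only 14 of 28 EAE libraries exceeded the highest naive one, so every group overlapped naive brain. Cd44 rose by 0.61 ± 0.22 in farnesol (adjusted p = 0.0309), 0.77 ± 0.23 in vehicle (adjusted p = 0.00862) and 0.79 ± 0.23 in untreated EAE (adjusted p = 0.00859). In farnesol EAE the call was lost when any of 5 single libraries was left out, farnesol 3 (0.50, adjusted p = 0.0785) or naive 1, 6, 7 or 8 (0.53 to 0.59). It was also lost when library set was a term (0.51, adjusted p = 0.111).

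S1pr3 (chr13:51408639-51422797) encodes a receptor for sphingosine 1-phosphate, a lipid signal. The lowest, median and highest libraries held 6.11, 9.99 and 15.3 CPM in farnesol EAE, 7.76, 11.5 and 18.2 CPM in vehicle EAE and 9.09, 11.7 and 16.2 CPM in untreated EAE, against 7.16, 9.48 and 10.9 CPM in naive brain. All EAE groups overlapped naive brain. S1pr3 measured 0.17 ± 0.16 in farnesol (adjusted p = 0.434), 0.30 ± 0.16 in vehicle (adjusted p = 0.152) and 0.40 ± 0.16 in untreated EAE (adjusted p = 0.0662). Without the untreated and vehicle libraries that carried Sbp it rose by 0.61 in untreated EAE (adjusted p = 0.0096). It was also called there when only untreated and naive libraries were fitted (0.41, adjusted p = 0.0173), without untreated 4 (0.45, adjusted p = 0.0426) and without untreated 5 (0.44, adjusted p = 0.0498). It shares 45 exonic bases with the opposite-strand gene Gm32834, which had 372 counts against 7955 for S1pr3 over all libraries, and the use of strand in counting is not given in the sources used here.

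Cd109, a membrane protein of the alpha-2-macroglobulin family that binds transforming growth factor beta (chr9:78615546-78716253), and Emp1, a tetraspan membrane protein of the PMP22 family (chr6:135362545-135383173), were not called against naive brain. Cd109 averaged 2.64 ± 0.97 CPM in farnesol, 2.88 ± 0.77 in vehicle and 2.47 ± 0.85 in untreated EAE, against 2.17 ± 0.71 CPM in naive brain (SD, n = 10, 9, 9 and 8). Only 7 of 28 EAE libraries exceeded the highest naive library for Cd109. Its changes were 0.29 ± 0.23, 0.41 ± 0.23 and 0.19 ± 0.23 in farnesol, vehicle and untreated EAE, with adjusted p of 0.342, 0.179 and 0.609. Emp1 averaged 3.85 ± 1.22 CPM in farnesol, 3.76 ± 1.22 in vehicle and 3.54 ± 0.93 in untreated EAE, against 2.82 ± 0.55 CPM in naive brain (SD). It exceeded the naive range in 13 of 28 EAE libraries. Its changes were 0.45 ± 0.19 (adjusted p = 0.061), 0.42 ± 0.19 (adjusted p = 0.0944) and 0.34 ± 0.19 (adjusted p = 0.209). Emp1 passed in farnesol EAE within set 2, when only farnesol and naive libraries were fitted (adjusted p = 0.0485), and without farnesol 1, farnesol 9 or naive 1.

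An Emp1 promoter window held the most motif matches of the 10 windows and is shown as the other window with a STAT match. Capitals mark 2 matches to TTCNNNGAA, at positions -120 and -22, in RefSeq sequence on GRCm38.p6, chr6:135362681-135362980, plus strand. This window too lies inside the interval given above for the gene.
Emp1 promoter: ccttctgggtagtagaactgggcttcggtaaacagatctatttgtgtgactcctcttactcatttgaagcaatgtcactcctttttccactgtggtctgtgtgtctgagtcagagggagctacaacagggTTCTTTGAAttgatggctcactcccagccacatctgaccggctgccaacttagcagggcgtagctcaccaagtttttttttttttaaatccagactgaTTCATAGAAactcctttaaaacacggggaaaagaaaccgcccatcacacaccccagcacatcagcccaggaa
The window shown also held the AP-1 motif TGANTCA at -145 and at -25, the copy at -25 overlapping a STAT match. Of all windows, 7.81% hold that motif. A further Emp1 window, starting at chr6:135367243, held neither motif.

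The secreted members Timp1 and Ptx3 rose in all 3 comparisons with naive brain, from low counts. Timp1 (chrX:20870166-20874735) encodes a tissue inhibitor of the metalloproteinases that cut extracellular matrix. Its lowest, median and highest libraries were at 0.943, 1.96 and 5.38 CPM in farnesol EAE, 0.619, 1.33 and 7.76 CPM in vehicle EAE and 1.15, 2.18 and 5.27 CPM in untreated EAE, against 0.599, 0.972 and 1.58 CPM in naive brain. Within vehicle EAE the libraries spanned 12.5-fold, and 16 of 28 EAE libraries exceeded the highest naive one. Timp1 rose by 1.44 ± 0.45 in farnesol (adjusted p = 0.0128), 1.45 ± 0.46 in vehicle (adjusted p = 0.0142) and 1.43 ± 0.46 in untreated EAE (adjusted p = 0.0191). Without vehicle 4, the highest library, the vehicle change was 1.09 and was not called (adjusted p = 0.0606). Timp1 lies in an intron of the neuronal gene Syn1 on the opposite strand, which had 423757 counts against 1711 for Timp1. Unspliced Syn1 RNA and Timp1 cannot be told apart if strand was not used in counting.

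Ptx3 (chr3:66219910-66225805) encodes pentraxin 3, a soluble pattern recognition protein of innate immunity. It was read 0 to 38 times per library. The lowest, median and highest libraries held 0.417, 0.707 and 1.57 CPM in farnesol EAE, 0.152, 0.596 and 1.41 CPM in vehicle EAE and 0.140, 0.752 and 1.79 CPM in untreated EAE, against 0, 0.309 and 0.542 CPM in naive brain. In 22 of 28 EAE libraries it exceeded the highest naive one. Ptx3 rose by 1.32 ± 0.41 in farnesol (adjusted p = 0.0121), 1.08 ± 0.42 in vehicle (adjusted p = 0.0463) and 1.56 ± 0.41 in untreated EAE (adjusted p = 0.00444). The vehicle call was lost in 12 of 17 fits that left out 1 library, with changes of 0.86 to 1.11, and without a count filter (adjusted p = 0.077). It was also lost with only vehicle and naive libraries fitted (adjusted p = 0.0512) and without Sbp-carrying libraries (adjusted p = 0.0565). Ptx3 overlaps the opposite-strand gene Veph1, with 0 shared exonic bases. Veph1 had 81 counts against 502 for Ptx3 over all libraries, and strand use in counting is not given.

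Aspg (chr12:112106679-112127559) encodes an asparaginase with lysophospholipase activity and showed the smallest adjusted p of the 10 genes in every comparison with naive brain. Its lowest, median and highest libraries were at 2.09, 4.85 and 9.36 CPM in farnesol EAE, 3.55, 5.41 and 14.3 CPM in vehicle EAE and 4.26, 5.82 and 10.9 CPM in untreated EAE, against 1.30, 2.72 and 3.31 CPM in naive brain. Every vehicle and every untreated library, and 8 of 10 farnesol libraries, lay above every naive one. Over all genes tested, 3.79% in vehicle and 2.62% in untreated EAE were higher without overlap. Aspg rose by 1.00 ± 0.26 in farnesol (adjusted p = 0.00274), 1.27 ± 0.26 in vehicle (adjusted p = 0.000288) and 1.44 ± 0.26 in untreated EAE (adjusted p = 9.97e-05).

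Hspb1 (chr5:135887919-135889563) encodes heat shock protein 27, a small chaperone that stabilizes actin and intermediate filaments. Its lowest, median and highest libraries were at 7.97, 12.03 and 20.1 CPM in farnesol EAE, 8.55, 10.8 and 18.9 CPM in vehicle EAE and 14.3, 15.5 and 18.3 CPM in untreated EAE, against 8.56, 11.1 and 14.4 CPM in naive brain. Untreated libraries lay close together (coefficient of variation 8.84%) and 8 of 9 exceeded the naive range, while 3 of 10 farnesol and 3 of 9 vehicle libraries did. Hspb1 rose by 0.52 ± 0.16 in untreated EAE (adjusted p = 0.015) and measured 0.13 ± 0.16 in farnesol (adjusted p = 0.544) and 0.19 ± 0.16 in vehicle EAE (adjusted p = 0.4). In untreated EAE the change was 0.56 without Sbp-carrying libraries and was then not called (adjusted p = 0.0569).

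The Hspb1 promoter is shown because Hspb1 was the member called in untreated EAE alone and heat shock factors are its known inducers. Hspb1 was not called between EAE groups, and a part of heat shock factors in its level was not tested. Capitals mark matches to the heat shock element GAANNTTC at positions -117 and -97, in RefSeq sequence on GRCm38.p6, chr5:135887669-135887968, plus strand, and 7.86% of all windows hold this motif.
Hspb1 promoter: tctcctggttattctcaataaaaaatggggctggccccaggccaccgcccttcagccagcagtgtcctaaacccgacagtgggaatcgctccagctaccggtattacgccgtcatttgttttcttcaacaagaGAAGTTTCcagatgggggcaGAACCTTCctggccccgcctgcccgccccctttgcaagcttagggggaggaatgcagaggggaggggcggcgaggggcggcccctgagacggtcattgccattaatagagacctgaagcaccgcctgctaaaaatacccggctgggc
No other window of the 10 held it.

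Among EAE groups none of the 10 genes passed the threshold. Between farnesol and vehicle EAE, where 0.0922% of all genes were called, none of the 10 was called by edgeR or DESeq2 and none had an unadjusted p below 0.05. Their changes ran from -0.27 ± 0.23 (Aspg) to 0.24 ± 0.35 (Ptx3), with a median of -0.13 against 0.00 over all genes, and 2 of 10 were above 0. Gfap measured -0.14 ± 0.26, and its approximate 95% interval ran from -0.66 to 0.38. Timp1 measured -0.01 ± 0.39, with an interval of -0.78 to 0.76. Both intervals include higher and lower levels in farnesol EAE, so equal levels are not shown. Without vehicle 4 the Gfap difference was 0.16, and among libraries of set 1 it was 0.19.

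Between farnesol and untreated EAE, where 1.87% of all genes were called, none of the 10 was called by either tool. The changes ran from -0.44 ± 0.23 for Aspg (adjusted p = 0.394) to 0.12 ± 0.18 for Emp1, with a median of -0.21 against 0.00 over all genes. Hspb1 had the only unadjusted p below 0.05 (-0.39 ± 0.15, p = 0.0141, adjusted p = 0.19, edgeR quasi-likelihood test), and Gfap measured -0.36 ± 0.26. Most farnesol libraries belong to set 2 and all untreated ones to set 1. Among set 1 libraries the differences were -0.07 for Hspb1, -0.07 for Aspg and -0.03 for Gfap. Without Sbp-carrying libraries they were larger, at -0.80 ± 0.26 for Gfap (adjusted p = 0.117), -0.45 ± 0.16 for Vim, -0.59 ± 0.21 for Cd44 and -0.44 ± 0.16 for S1pr3, and none of the 10 was called.

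Between vehicle and untreated EAE, both wholly in set 1, 0.0217% of all genes were called and none of the 10 by either tool. The changes ran from -0.48 ± 0.35 (Ptx3) to 0.22 ± 0.22 (Cd109), with a median of -0.06 against 0.01 over all genes. Hspb1 again had the only unadjusted p below 0.05 (-0.33 ± 0.15, p = 0.0361, adjusted p = 0.568, edgeR quasi-likelihood test). Gfap measured -0.23 ± 0.27 (interval -0.76 to 0.31). Without Sbp-carrying libraries the difference was -0.78 ± 0.29 for Gfap (adjusted p = 0.456), -0.49 ± 0.23 for Cd44 and -0.36 ± 0.18 for Vim, and again none of the 10 was called. These 3 comparisons share groups and are given side by side.

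**Figure D3:**
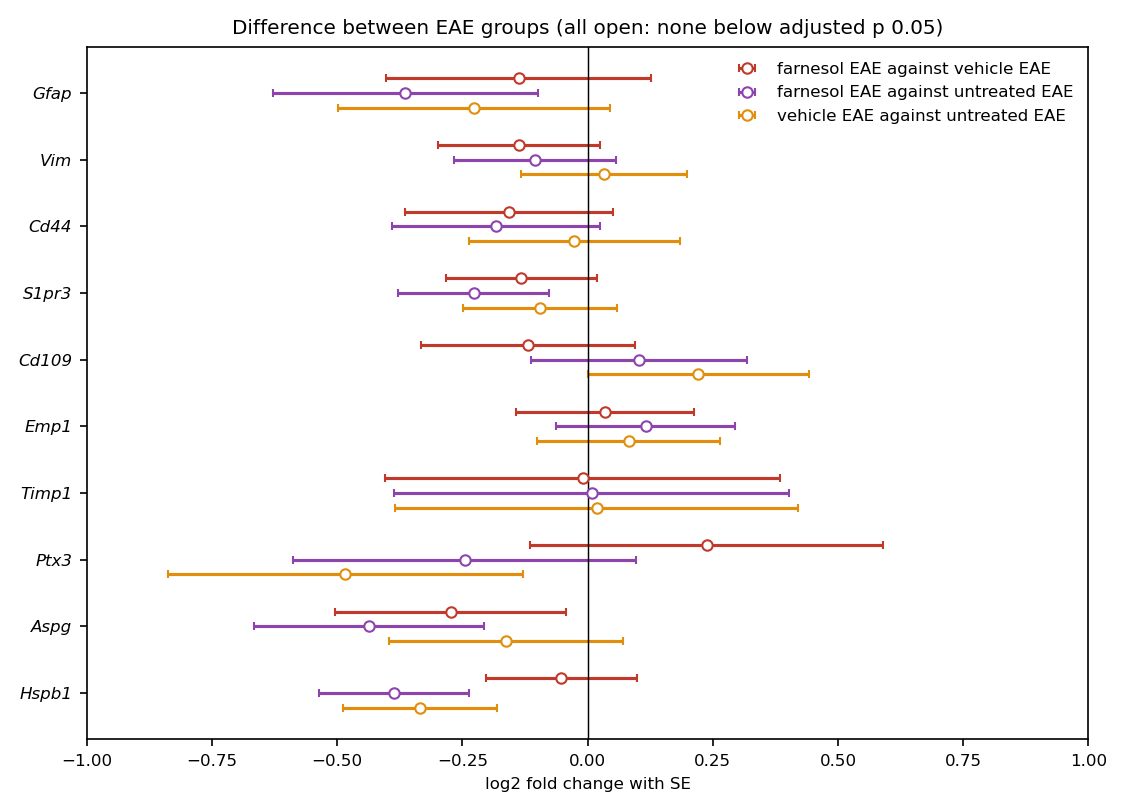
Log2 fold change with SE (horizontal axis) of each gene (rows) for farnesol over vehicle, farnesol over untreated and vehicle over untreated EAE. All points are open because none reached an adjusted p below 0.05, and Hspb1 lies at -0.39 and -0.33 in the comparisons with untreated EAE.

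Libraries of one EAE group differed widely in these genes. Vehicle 4 was the highest vehicle library for 7 of the 10 genes, farnesol 3 the highest farnesol library for 7, and untreated 6 the highest untreated library for 5. Gfap was 5.72-fold higher in the highest than in the lowest vehicle library, 3.76-fold in farnesol and 2.72-fold in untreated EAE, against 1.46-fold among naive brains. Untreated libraries that carried Sbp held 357 to 521 CPM of Gfap and the other 4 held 715 to 969 CPM, without overlap. The same held for Vim, at 66.2 to 97.2 against 120 to 161 CPM, and for Cd44, at 7.10 to 9.23 against 11.6 to 18.4 CPM. Over all genes tested, 4.68% were lower in the Sbp-carrying untreated libraries without overlap. The other 7 members overlapped, among them S1pr3 at 9.09 to 14.1 against 11.7 to 16.2 CPM and Hspb1 at 14.3 to 18.3 against 15.3 to 18.2 CPM. Without Sbp-carrying libraries the changes in untreated EAE over naive brain were 1.79 for Gfap, 1.01 for Vim and 1.19 for Cd44. In vehicle EAE the Sbp-carrying libraries included both the lowest and the highest Gfap level, 234 and 1337 CPM.

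Most of the other 9 genes varied together with Gfap among libraries of one group, and Emp1 did not do so in farnesol EAE. Over the 28 EAE libraries, with each group's mean removed from log2(CPM + 0.5), Pearson's r with Gfap was 0.93 for Vim, 0.92 for Cd44, 0.86 for S1pr3 and 0.83 for Timp1. Spearman's rho was 0.91, 0.83, 0.83 and 0.81 in the same order. Each of these had a two-sided permutation p of 1e-05, the smallest that 100000 permutations within groups can give (1.8e-05 adjusted over the 9 relations). Aspg had r = 0.78 and rho = 0.73 with the same p. Hspb1 had r = 0.70 and rho = 0.71 (permutation p = 0.00024, adjusted 0.000309), and Ptx3 r = 0.66 and rho = 0.63 (permutation p = 0.00022, adjusted 0.000309). The weakest relations were those of Cd109 (r = 0.53, rho = 0.49, permutation p = 0.00324, adjusted 0.00364) and Emp1 (r = 0.41, rho = 0.42, permutation p = 0.0462, adjusted 0.0462). S1pr3, not called against naive brain, was among the genes with a high r. Many genes outside the list followed Gfap as closely. By rho the 9 members ranked from 34 (Vim) to 2182 (Emp1) among 18438 genes tested.

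Without vehicle 4 and farnesol 3, the libraries farthest from the Gfap median, r ranged from 0.39 for Cd109 to 0.90 for Vim, and was 0.42 for Emp1. Within set 1 (21 EAE libraries) r ranged from 0.49 for Cd109 to 0.95 for Vim, and within set 2 (7 EAE libraries) from 0.10 for Emp1 to 0.89 for Vim and Cd44. Vim, Cd44 and S1pr3 had r of at least 0.72 within each of the 3 EAE groups, while Emp1 had 0.03 in farnesol, 0.62 in vehicle and 0.61 in untreated EAE. Among all pairs of the 10 genes rho ran from -0.01 (Emp1 with Cd109) to 0.91 (Gfap with Vim), and Emp1 was the least correlated partner of 8 genes.

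**Figure D4:**
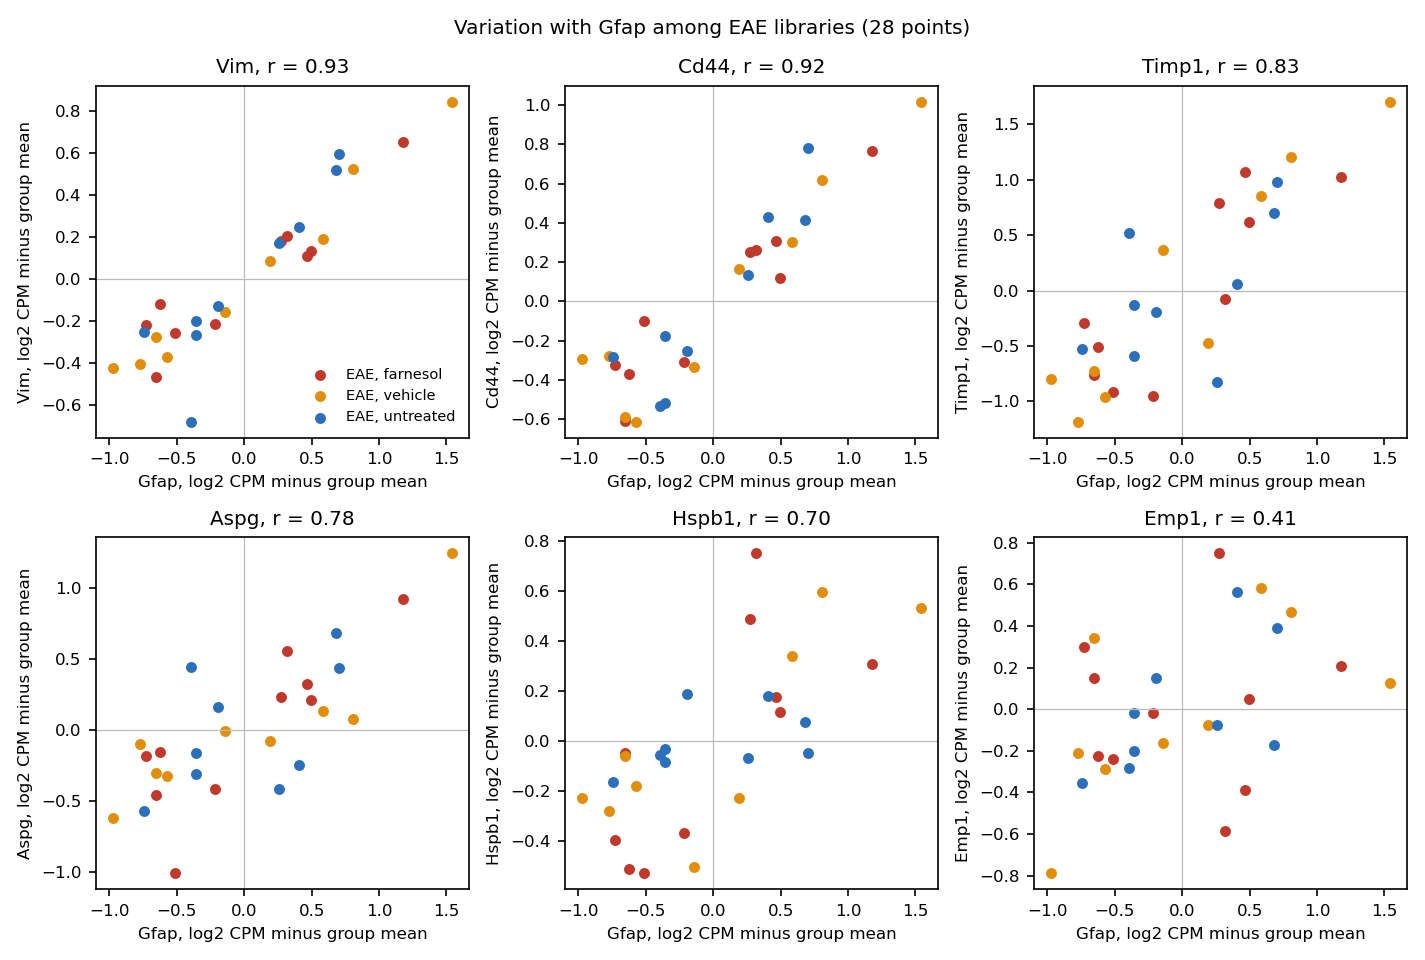
Log2(CPM + 0.5) minus the group mean of 6 genes (vertical axes) against that of Gfap (horizontal axes) in 28 EAE libraries, coloured by group. Vim and Cd44 lie close to a line (r = 0.93 and 0.92), Timp1, Aspg and Hspb1 scatter more, and Emp1 shows a weak relation (r = 0.41).

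The genes whose levels followed Gfap most closely over the 28 EAE libraries included genes of antigen presentation. By Spearman's rho the closest 5 named genes outside the list were H2-Ab1 (0.96) and H2-Aa (0.94), the chains of an MHC class II molecule of antigen presenting cells, Serpina3n (0.94), an acute phase protease inhibitor of reactive astrocytes, H2-DMb1 (0.94), which loads class II molecules, and Cd52 (0.94), a leukocyte surface gene. Vim ranked 34 of 18438 by the same measure, S1pr3 347, Cd44 355, Timp1 427 and Aspg 742. Hspb1 ranked 811, Ptx3 1091, Cd109 1777 and Emp1 2182. Serpina3n averaged 46.8 ± 28.3 CPM in farnesol, 48.3 ± 43.6 in vehicle and 48.8 ± 21.7 in untreated EAE, against 16.8 ± 1.9 CPM in naive brain (SD).

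Summed markers of monocytes, microglia and T cells varied together with Gfap among EAE libraries. The summed level of 10 monocyte and macrophage markers ran from 71.1 to 260 CPM in farnesol, 65.6 to 534 in vehicle and 71.6 to 225 in untreated EAE, against 34.1 to 39.2 CPM in naive brain, and 1 of the 10 markers was at 0 in every naive library. All 28 EAE libraries exceeded the naive range, as they did for 10 neutrophil markers (21.7 to 95.2 against 6.23 to 9.85 CPM). T cell markers exceeded it in 7 of 10 farnesol, 6 of 9 vehicle and 7 of 9 untreated libraries, and microglia markers in 6 of 10, 4 of 9 and 6 of 9. For microglia markers 2, 3 and 3 libraries of these groups lay below the lowest naive library. By edgeR, 9, 9 and 8 of the 10 monocyte markers and all 10 neutrophil markers rose in farnesol, vehicle and untreated EAE. Over all genes tested, 17.9%, 16.3% and 13.6% rose. Among EAE libraries, Gfap correlated with the summed monocyte markers (r = 0.93, rho = 0.87), microglia markers (r = 0.86, rho = 0.81) and T cell markers (r = 0.85, rho = 0.77; permutation p = 1e-05 for each r, adjusted 2.67e-05 over 8 marker lists). For neutrophil markers r was 0.32 (permutation p = 0.0755, adjusted 0.101) and rho 0.24. Within set 2 r was 0.84 for monocyte, 0.76 for microglia and 0.52 for T cell markers. These 8 relations were chosen after the values were seen. What part these cells had in the levels of genes that leukocytes also make, such as Cd44 and Vim, was not tested.

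Vessel and meningeal markers were called in both directions. Summed endothelial markers lay at 365 to 445 CPM in farnesol, 329 to 447 in vehicle and 330 to 433 in untreated EAE, against 355 to 423 CPM in naive brain. Gfap correlated with them at r = 0.24 over the EAE libraries (permutation p = 0.25, adjusted 0.286). Within groups the sign differed, with r of -0.46 in farnesol, 0.46 in vehicle and 0.60 in untreated EAE. Of 10 fibroblast and leptomeningeal markers 1, 1 and 1 rose and 3, 2 and 1 fell in farnesol, vehicle and untreated EAE, and their sum correlated with Gfap (r = 0.69, permutation p = 0.00017, adjusted 0.00034, and r = 0.53 within set 2). Of 10 endothelial markers 2 rose in each comparison and 2, 2 and 3 fell, and of 10 mural markers 0 rose and 1, 1 and 2 fell, where 34.2%, 31.5% and 24.9% of all genes were called. Of 10 neuron markers 0 rose and 10, 8 and 6 fell, and of 10 oligodendrocyte markers 0 rose and 2 fell in each. Of 10 ependymal and choroid plexus markers 0, 1 and 0 rose and 0 fell, and 0 of 12 cerebellar genes were called. Among 9 T cell markers tested 5, 7 and 7 rose, and among 10 microglia markers 1, 1 and 4 rose and 0, 2 and 0 fell.

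**Figure D5:**
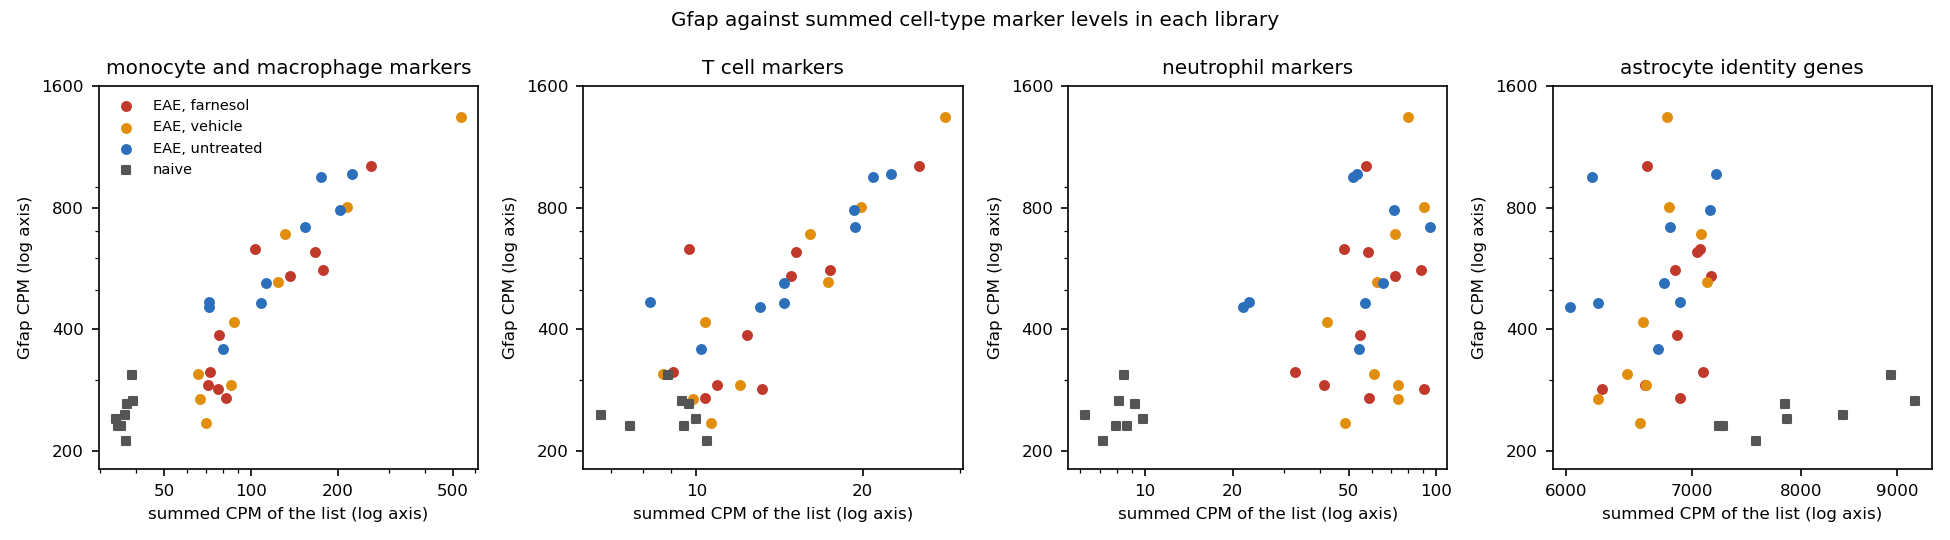
Gfap CPM (vertical log axes) against the summed CPM of monocyte, T cell and neutrophil markers and of astrocyte identity genes (horizontal log axes) in each library, with EAE groups as circles and naive brain as squares. Gfap climbs with monocyte and T cell markers, and all 28 EAE libraries lie left of the naive range for astrocyte identity genes.

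Genes that mark resting astrocytes did not rise with Gfap. Of 14 astrocyte identity genes 0 rose in any comparison with naive brain, and 6 fell in farnesol, 3 in vehicle and 6 in untreated EAE. Of all genes tested, 34.2%, 31.5% and 24.9% were called in these comparisons, and 17.9%, 16.3% and 13.6% rose. The summed level of the 14 identity genes was 6267 to 7164 CPM in farnesol, 6242 to 7132 in vehicle and 6027 to 7210 in untreated EAE. All of these lay below every naive library (7233 to 9197 CPM). This was not particular to astrocyte genes. Summed neuron markers lay below every naive library (7890 to 8915 CPM) in 10 of 10 farnesol, 9 of 9 vehicle and 7 of 9 untreated libraries. The glutamate transporter gene Slc1a2 fell by 0.33, 0.56 and 0.47, and the second transporter gene Slc1a3 fell by 0.26 in farnesol and by 0.24 in untreated EAE. Sox9, the transcription factor of the astrocyte lineage, fell in vehicle (-0.32) and untreated EAE (-0.43) and measured -0.25 in farnesol EAE (adjusted p = 0.081). Among EAE libraries the sum of the identity genes had r = 0.38 with Gfap (permutation p = 0.0428, adjusted 0.0685) and rho = 0.43 (permutation p = 0.0239, adjusted 0.0382). Within set 2 its r was 0.62.

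Further genes of the same published astrocyte programs rose in EAE. All 6 other pan-reactive genes rose in each comparison with naive brain. Of all genes tested, 17.9% rose in farnesol, 16.3% in vehicle and 13.6% in untreated EAE. Cp, the copper ferroxidase ceruloplasmin, averaged 40.6 ± 7.7 CPM in farnesol, 42.3 ± 12.4 in vehicle and 43.2 ± 10.0 in untreated EAE, against 18.9 ± 1.6 CPM in naive brain (SD). Of 11 A1-type genes tested, a set induced by bacterial endotoxin in mice, 8, 9 and 9 rose in farnesol, vehicle and untreated EAE and 0 fell. H2-D1, an MHC class I gene of most cell types, averaged 256 ± 160, 301 ± 256 and 328 ± 169 CPM, against 76.7 ± 9.8 CPM in naive brain. Of 9 other A2-type genes 5, 6 and 6 rose and 0 fell, with Cd14, a lipopolysaccharide co-receptor also of myeloid cells, up by 1.87, 1.96 and 2.11. Their medians were 1.99, 2.14 and 2.14 for pan-reactive, 0.93, 1.28 and 1.04 for A1-type and 0.36, 0.39 and 0.36 for A2-type genes, against medians within 0.01 of 0 over all genes.

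In the interleukin 6 and STAT3 pathway, 5, 6 and 6 of 11 genes tested rose and 2, 2 and 1 fell in farnesol, vehicle and untreated EAE. Of all genes tested, 34.2%, 31.5% and 24.9% were called and 17.9%, 16.3% and 13.6% rose. Osmr, the oncostatin M receptor, averaged 9.89 ± 2.52, 11.1 ± 3.7 and 10.9 ± 2.6 CPM, against 4.67 ± 0.58 CPM in naive brain. Socs3, the feedback inhibitor that STAT3 induces, rose by 1.31, 1.48 and 1.40, and Il6ra, the interleukin 6 receptor chain, rose by 0.61, 0.54 and 0.84. Cntfr, the receptor of ciliary neurotrophic factor on neurons, fell by 0.26, 0.15 and 0.21.

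Relatives and partners of the members were tested as lists. For scale, 34.2%, 31.5% and 24.9% of all genes were called in farnesol, vehicle and untreated EAE against naive brain, and 17.9%, 16.3% and 13.6% rose. Of 10 other intermediate filament genes 0 rose, and 4, 3 and 1 fell in farnesol, vehicle and untreated EAE. Nes, the filament nestin of progenitors and some reactive astrocytes, fell by 0.51, 0.51 and 0.37, and the neurofilament gene Nefl fell in farnesol (-0.18) and vehicle EAE (-0.22). Of 10 genes for hyaluronan and other CD44 ligands 0, 2 and 1 rose and 0, 1 and 0 fell. Cemip, which binds and degrades hyaluronan, rose in vehicle (0.32) and untreated EAE (0.43) and measured 0.20 in farnesol EAE (adjusted p = 0.0776). Among 11 metalloproteinase and TIMP genes 5, 4 and 4 rose and 1, 1 and 1 fell, with the neutrophil collagenase gene Mmp8 at 1.63 ± 0.56, 1.75 ± 0.70 and 1.05 ± 0.56 CPM against 0.0896 ± 0.13 CPM in naive brain. Timp3, a matrix-bound inhibitor, fell in untreated EAE (-0.25).

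Of 9 sphingosine 1-phosphate genes 1 rose in each comparison, the endothelial exporter gene Spns2 (0.47, 0.43 and 0.46), and 2, 2 and 1 fell, among them the oligodendrocyte receptor gene S1pr5 (-0.24, -0.25 and -0.27). Again 34.2%, 31.5% and 24.9% of all genes were called in farnesol, vehicle and untreated EAE. Of 4 other small heat shock genes tested, 0 rose and only Cryab, the filament-binding alpha B crystallin, fell in farnesol EAE (-0.27). Emp2 of the PMP22 family fell in every comparison (-0.56, -0.31 and -0.34). In the alpha-2-macroglobulin family the complement genes C3 and C4b rose (4.32 and 2.42 in farnesol, 4.76 and 2.59 in vehicle, 4.67 and 2.75 in untreated EAE), while A2m and Pzp were not called. Of 3 other pentraxin genes 0 rose, and the neuronal receptor gene Nptxr fell in farnesol (-0.35) and vehicle EAE (-0.40). Asns, asparagine synthetase, fell by 0.25, 0.25 and 0.23, and Asrgl1, a second asparaginase, fell by 0.21, 0.20 and 0.20.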

How the data were processed

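Whole-brain RNA-seq libraries (n = 36) were analysed from the authors' deposited table of raw read counts per Ensembl gene. Reads were mapped with STAR 2.5 to mm10, per the submitters' processing notes, and the extract protocol in the labels also mentions Kallisto. For the counting program, the annotation release and strand use, the answer is: not given in the sources used here. Overlapping genes may therefore share counts.

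Symbols were matched by Ensembl ID to GENCODE M21 on GRCm38, which named 54495 of 54532 genes. Genes passing edgeR's filterByExpr (minimum count 10, minimum total 15) were scaled by TMM and fitted in one quasi-likelihood model with 4 group means (edgeR 4.0.16, R 4.3.3). P-values were adjusted by Benjamini-Hochberg over all 18438 genes, and calls used 0.05. SE is the size of the log2 change over the square root of F. CPM used TMM-scaled library sizes. Group-centred correlations used log2(CPM + 0.5) and 100000 two-sided permutations within groups (numpy 2.4.6, scipy 1.17.1, Python 3.11.15), with figures from matplotlib 3.10.9. The code was tested on simulated data.

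The members and gene lists were chosen with earlier results of these data known. The text names all 10 members, up to 4 genes of smallest p in untreated EAE against naive brain from each other list, and the 5 named non-member genes closest to Gfap. Alternatives were DESeq2 1.42.0, its size factors (RLE), no count filter, a replicate block, only the groups compared and each library left out. Library set as a term, fits within a set, and fits without Sbp-carrying or cerebellum-low libraries were also made. Promoter windows are RefSeq sequences, matched by symbol for 9 members, and Cd109 was not matched.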

Additional observations from a re-analysis of the deposited data

Results flagged for a closer look

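In 4 of 40 groups of libraries, taken per gene, 1 library lay apart from the others by Dixon's gap criterion at the 95% level, which chance alone gives in about 1 in 20 groups. Gfap in farnesol 3 was at 1015 CPM, with a gap to the next library of 0.51 of the group's range. Vim in the same library was at 158 CPM (gap 0.49 of the range). Vim in naive 4, the lowest naive library and one low in cerebellar genes, was at 43.4 CPM (gap 0.63 of the range). Aspg in vehicle 4, the library also highest for Gfap, was at 14.3 CPM (gap 0.74 of the range).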

How the results depend on the processing

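Of the 30 changes against naive brain, DESeq2 and RLE scaling left all 30 calls as they were, as did leaving out cerebellum-low libraries. Member counts were 7 to 8 in untreated, 4 to 7 in vehicle and 5 to 7 in farnesol EAE when 1 library was left out, and 0 between EAE groups. With library set as a term 0 members were called in untreated and vehicle EAE, where 175 and 684 genes were called in all, and changes turned negative for Cd109 in untreated (-0.33) and vehicle (-0.11) and for Hspb1 in vehicle (-0.30) and farnesol EAE (-0.033, and -0.026 within set 2). The cause was not tested.

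None of the following differences between EAE groups was called, and each changed sign. Vehicle against untreated: Timp1 -0.15 with the replicate block, Vim -0.038 without cerebellum-low libraries, and without Sbp-carrying libraries Vim -0.36, Cd109 -0.085, Emp1 -0.072 and Timp1 -0.41. Farnesol against vehicle: Timp1 0.22 with the block and 0.081 without cerebellum-low libraries, and without Sbp-carrying libraries Cd109 0.00065, Emp1 -0.013 and Timp1 0.13. With the set term farnesol against vehicle gave Gfap 0.20, Vim 0.030, Cd44 0.042, Cd109 0.22, Emp1 -0.064, Timp1 0.042, Aspg 0.10 and Hspb1 0.27, and within set 1 Gfap 0.19, Vim 0.023, Cd44 0.034, Cd109 0.21, Emp1 -0.070, Timp1 0.035, Aspg 0.095 and Hspb1 0.26. Farnesol against untreated: Timp1 -0.0055 without a filter, Vim 0.063 and Cd44 0.015 with the set term, Vim 0.058 and Cd44 0.010 within set 1, and without Sbp-carrying libraries Cd109 -0.084, Emp1 -0.086 and Timp1 -0.29.

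Leaving out 1 library gave ranges across 0 in vehicle against untreated for Vim (-0.10 to 0.12), Timp1 (-0.35 to 0.20), Cd44 (-0.20 to 0.10) and Emp1 (-0.012 to 0.18). In farnesol against vehicle it did so for Timp1 (-0.17 to 0.36), Hspb1 (-0.16 to 0.036), Gfap (-0.32 to 0.16), Cd44 (-0.27 to 0.018) and Emp1 (-0.085 to 0.13), and in farnesol against untreated for Timp1 (-0.15 to 0.19) and Emp1 (-0.0031 to 0.21).

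Genes called over the whole table numbered 4 in vehicle against untreated EAE, and 7 with RLE scaling, 10 with the block, 11 with the set term, 1 without cerebellum-low libraries, 0 without Sbp-carrying libraries, 1 with only the groups compared, 1 within set 1 and 46 by DESeq2. In farnesol against vehicle EAE 17 genes were called, and 7 with the block, 1 with the set term, 7 without Sbp-carrying libraries, 8 with only the groups compared, 0 within set 1 and 53 by DESeq2. In farnesol against untreated EAE 345 were called, and 202, 56, 567, 225, 128, 12 and 582 with the block, the set term, no cerebellum-low libraries, no Sbp-carrying libraries, only the groups compared, set 1 and DESeq2. With 1 library left out these counts were 0 to 15, 8 to 36 and 210 to 500.

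Within set 2, r with Gfap was 0.89 for Vim, 0.89 for Cd44, 0.37 for Ptx3, 0.84, 0.76, 0.52 and 0.53 for monocyte, microglia, T cell and fibroblast markers, -0.40 for endothelial markers and -0.0051 for cerebellar genes, and Cd44 had 0.89 without the 2 farthest libraries. Same-numbered libraries did not vary together (correlations of -0.33 to 0.38), so the numbers were not taken as pairs, and with the replicate block 7, 5 and 5 members were called in untreated, vehicle and farnesol EAE against naive brain, without Ptx3 in vehicle (adjusted p = 0.0939) and Cd44 in farnesol EAE (adjusted p = 0.0593). Low counts limit Ptx3 most, and library set limits every comparison of vehicle or untreated EAE with naive brain.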
